A study of Homo sapiens with 6 samples.

Results

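The genes described here code for axon guidance cues and their receptors, protocadherins, cadherins and related neuronal adhesion molecules. They were chosen by symbol alone, from the letters that name the ephrin, Eph, semaphorin, plexin, neuropilin, Slit, Slitrk, Robo, netrin, UNC5, DCC, Nogo receptor, LRRTM, FLRT, protocadherin, cadherin, neurexin, neuroligin, contactin and NGL families. Of the 4101 genes in the deposited table, 54 fitted, after 1 antisense gene was left out. SH-SY5Y, a human neuroblastoma line of noradrenergic character that is widely used as a model of dopaminergic neurons, was the only cell line and was labelled WT in all libraries. The METH group received 2 mM methamphetamine, a psychostimulant that releases dopamine, for 24 h, and the PBS group received buffer. Each group had 3 libraries, named here METH 1, 2 and 3 and PBS 10, 11 and 12 after the columns of the table.

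Growth cones steer by binding secreted or membrane-bound cues. Ephrins, semaphorins, Slits and netrins are the classical cue families, and their receptors (Eph kinases, plexins with neuropilins, Robo, DCC and UNC5 proteins) act on the cytoskeleton to attract or repel. Cadherins and protocadherins hold cell surfaces together or mark them, and neuroligins, contactins, Slitrk and NGL proteins organise the synapse. In neuroblastoma cells the same families also take part in migration, differentiation and survival.

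In the METH libraries every ephrin and Eph gene of the table was higher, 3 of 4 genes for netrins and netrin receptors were higher, and 3 of 4 plexin and neuropilin genes were lower. The leading single genes were PCDHA8, SLITRK6 and RTN4RL1, each with mean levels more than 10 times those of PBS. Of the 54 genes, 21 rose and 14 fell at an adjusted p-value under 0.1 (limma on log2(CPM + 0.1), adjusted over all 4101 genes), and 19 did not pass. CPM is the usual unit of reads on a gene scaled to a fixed library total, with no correction for gene length. The 35 that passed make 64.8% of the 54, against 69.1% of all genes in the table, 33.3% of which were higher and 35.8% lower. That background is high because the table lists only genes that the submitters had already marked as different in these same libraries, so a gene not in it is not analysed here and the counts of passing genes carry little information on their own. The adjusted p-values of single genes have the same limit. They were adjusted only over genes chosen in these libraries, so they overstate the support and are no independent test of a difference. The median log2 fold change of the 54 genes was 0.50, beside 0.11 for the whole table. METH and PBS values did not overlap in 39 of the 54, beside 64.0% of all genes. Each of those 39 had an exact two-sided permutation p-value of 0.1, which is the smallest that 3 against 3 libraries allow.

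The libraries held 20027076 to 25449374 reads on genes of the table, 19.3 to 24.3% of their totals, and 1 read stood for 0.00903 to 0.0117 CPM. No pair of libraries was a duplicate. The labels do not say whether libraries came from separate cultures, so p-values measure only the spread between these libraries. In a bulk culture, fewer cells of a kind and less RNA per cell cannot be told apart. A mean under 1 CPM in both groups was found for 12 of the genes. The count of 21 higher and 14 lower rested on single libraries: it was 11 and 4 without METH 1, 8 and 5 without METH 2, and 16 and 9 without PBS 10. The 11 genes that passed in all 6 fits with 1 library left out were RTN4RL1, PCDHA8, PCDHA14, CDH11, CDH18, NTNG2, UNC5A, PLXNA4, SEMA5B, CNTNAP4 and SLITRK6. With the adjustment made over 20000 tests, a stand-in for all genes that could have been measured, 7 of the 54 passed, beside 10.0% of the whole table: PCDHA8, SLITRK6, RTN4RL1, NTNG2, UNC5A and CNTNAP4 were higher and SEMA5B was lower.

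**Figure D1:**
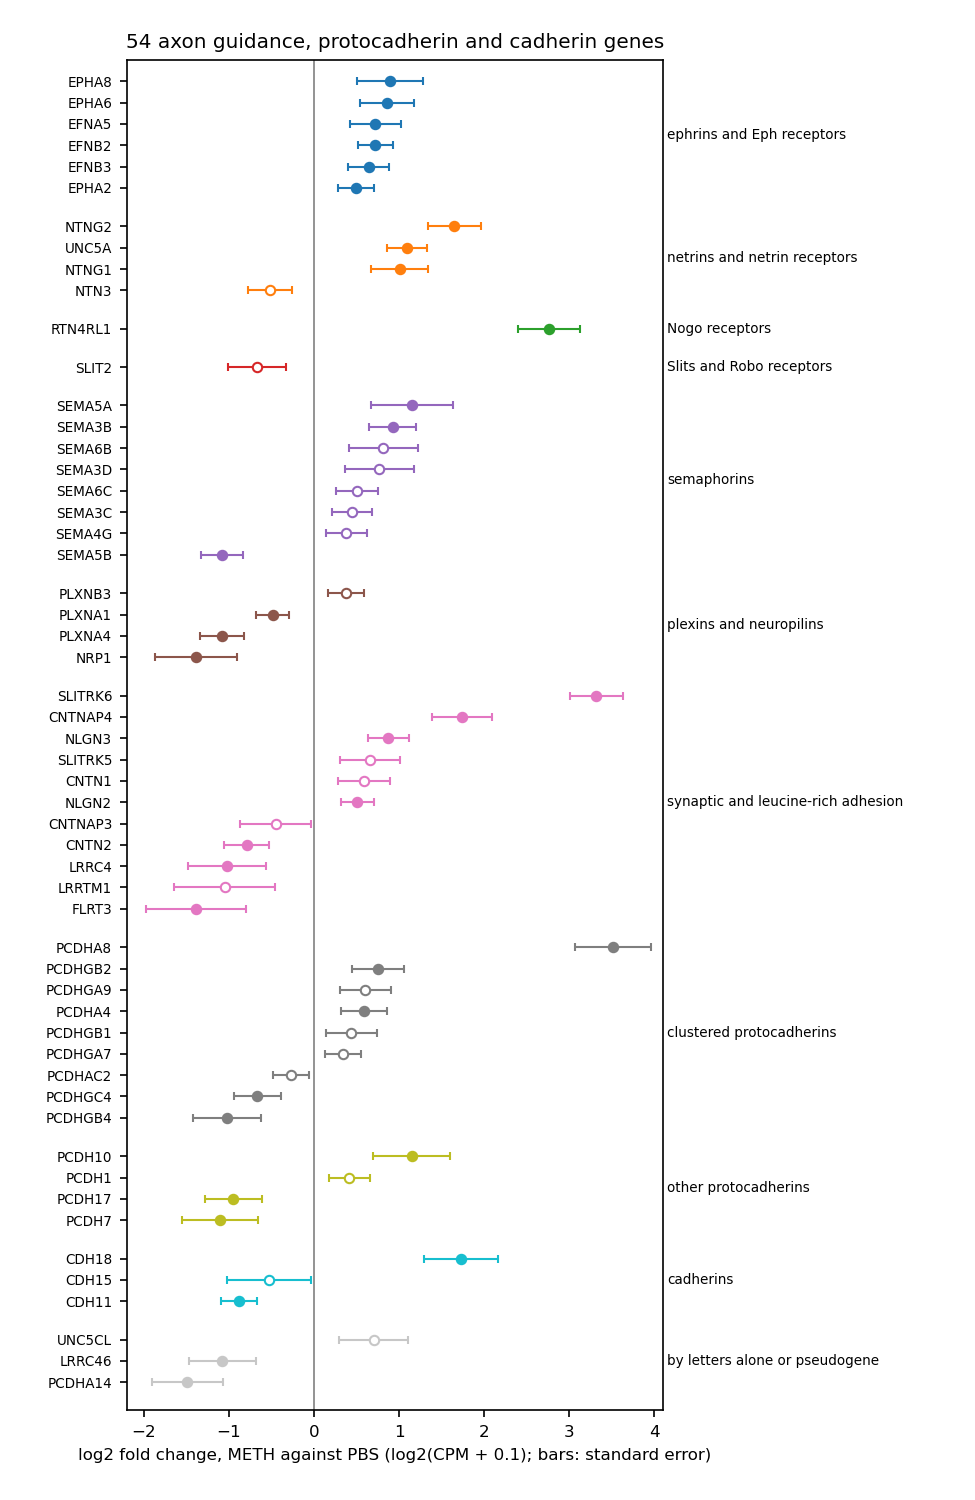
Log2 fold change of METH against PBS on the log2(CPM + 0.1) scale (x axis) for the 54 genes (y axis), grouped by role; bars are standard errors and filled points passed an adjusted p-value of 0.1. The 6 ephrin and Eph genes lie to the right of zero, PLXNA1, PLXNA4 and NRP1 lie to the left, and PCDHA8, SLITRK6 and RTN4RL1 lie farthest to the right.

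Ephrins and Eph receptors signal at contacts between cells, in both directions, and mostly repel. All 6 in the table rose: the ligands EFNA5, EFNB2 and EFNB3 and the receptors EPHA2, EPHA6 and EPHA8. Their log2 fold changes lay within 0.49 and 0.90, a narrow range, with a median of 0.72. EFNB2 (ENSG00000125266), a transmembrane ligand also known from arterial vessels, measured 14.6, 10.8 and 12.9 CPM in PBS and 20.3, 20.6 and 22.0 CPM in METH. Every METH library of EFNB2 was above every PBS library, and its spread was small in both groups, 12.8 ± 1.93 CPM against 20.9 ± 0.935 CPM (SD, n = 3). On the log2 scale EFNB2 differed by 0.72 with a standard error of 0.20 (limma adjusted p = 0.0307). EFNB3, a ligand of the ventral midline, had the highest level per kb of exon of the 54 genes, 9.83 CPM per kb in PBS and 15.3 in METH. It measured 24.0, 37.0 and 34.0 CPM in PBS and 57.0, 52.7 and 38.3 CPM in METH (log2 fold change 0.64, limma adjusted p = 0.0611).

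EFNA5, a GPI-anchored ligand of topographic maps, measured 9.22, 11.9 and 8.28 CPM in PBS and 22.1, 17.7 and 10.5 CPM in METH, so that METH 3 fell among the PBS values. The receptor EPHA8 showed the same overlap, with 2.62, 5.29 and 6.81 CPM in PBS and 11.5, 9.37 and 5.85 CPM in METH. EPHA8 had the largest log2 fold change of the family with limma, 0.90 with a standard error of 0.39 (limma adjusted p = 0.0788), which was 0.51 without PBS 10. EPHA6 had the larger value of the 2 with edgeR and TMM scaling (0.803 against 0.785) and with DESeq2 (0.842 against 0.821). EPHA6 measured 1.91, 2.59 and 1.37 CPM in PBS and 4.54, 3.35 and 2.86 CPM in METH, with a log2 fold change of 0.86 and a standard error of 0.32 (limma adjusted p = 0.0585). EPHA2, an Eph kinase better known from epithelia and tumours, measured 13.6, 15.1 and 18.3 CPM in PBS and 23.4, 24.5 and 18.4 CPM in METH, and its lowest METH value lay just above its highest PBS value. METH 3 was thus the lowest METH library in 5 of the 6 genes, and EFNB2 was the exception. The passes of this family were not firm. Without METH 2 none of the 6 passed (limma adjusted p from 0.105 to 0.239), without METH 1 only EFNB2 did, without PBS 10 EFNB2 and EPHA6 did, without PBS 12 EFNB2, EPHA2 and EPHA8 did, without PBS 11 all but EPHA2 did, and without METH 3 all 6 did. All 6 differences stayed positive in each of these fits, between 0.40 and 1.18.

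Netrins are secreted or membrane-tied relatives of laminin. The netrin-G proteins, which are anchored in the membrane and bind the NGL family of postsynaptic proteins, rose in both members: NTNG2 by 3.01-fold and NTNG1 by 2.12-fold in mean CPM. NTNG2 (ENSG00000196358, chromosome 9, 132161676 to 132244534, plus strand) measured 4.11, 8.87 and 8.503 CPM in PBS and 21.4, 24.7 and 18.6 CPM in METH. Its METH values lay far above its PBS values, with PBS 10 as the lowest library. NTNG2 changed by 1.65 on the log2 scale, with a standard error of 0.31 (limma adjusted p = 0.0108). NTNG1 was at 1.13, 0.656 and 1.03 CPM in PBS and 1.47, 2.52 and 1.96 CPM in METH, with a log2 fold change of 1.01 and a standard error of 0.33 (limma adjusted p = 0.0442, and 0.153 without METH 2). The groups did not overlap for NTNG1, but METH 1 was close to the PBS libraries.

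UNC5A (ENSG00000113763, chromosome 5, 176810477 to 176880898, plus strand) codes for a receptor that turns netrin-1 into a repellent and that belongs to the dependence receptors, which can trigger apoptosis when no ligand is bound. It measured 14.96, 17.3 and 22.3 CPM in PBS and 43.0, 42.5 and 31.1 CPM in METH. All METH libraries lay above the PBS range, and the mean level was 2.13 times that of PBS. On the log2 scale UNC5A differed by 1.09 with a standard error of 0.23 (limma adjusted p = 0.0154). HK3, a hexokinase gene that overlaps UNC5A on the other strand, was at 0.452 ± 0.177 CPM in PBS and 2.46 ± 1.40 CPM in METH (SD, n = 3), which is small beside the UNC5A values. Whether strand was used in counting is not given in the sources used here. NTN3, a secreted netrin, did not pass: its log2 fold change was -0.52 (95% interval -1.11 to 0.07), although its groups just failed to overlap, 4.848 to 7 CPM in PBS and 3.32 to 4.843 CPM in METH. It did pass as lower with edgeR and TMM scaling (adjusted p = 0.0923) and with DESeq2 (adjusted p = 0.0824).

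**Figure D2:**
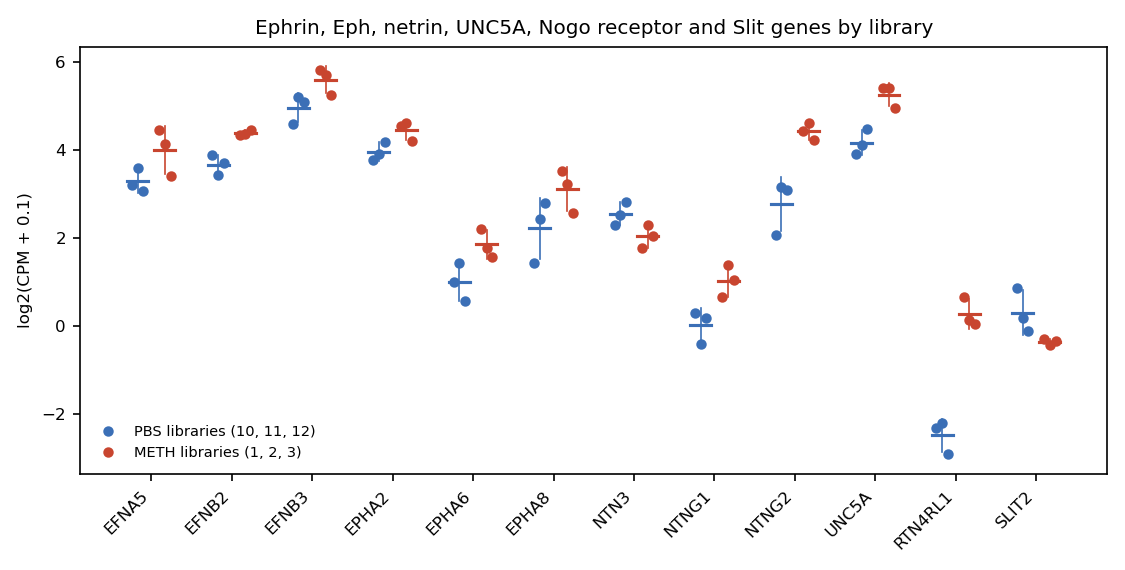
Level of each ephrin, Eph, netrin, UNC5A, Nogo receptor and Slit gene on the log2(CPM + 0.1) scale (y axis) in the PBS (blue) and METH (red) libraries; points are libraries in the order of their numbers, horizontal lines group means and vertical lines 1 SD. RTN4RL1, NTNG2 and UNC5A show the widest gaps between groups, and the last METH point of EFNA5 and EPHA8 falls within the PBS range.

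Semaphorins are secreted or membrane-bound cues that signal through plexins, and class 3 semaphorins need a neuropilin as well. Of 8 semaphorin genes, SEMA3B and SEMA5A rose, SEMA5B fell and 5 did not pass, whereas PLXNA1, PLXNA4 and NRP1 fell and PLXNB3 did not pass. SEMA3B (ENSG00000012171), a secreted cue lost in several tumours, measured 1.33, 1.77 and 1.59 CPM in PBS and 2.77, 3.59 and 2.81 CPM in METH. The METH values of SEMA3B were all above the PBS values, with a log2 fold change of 0.92 and a standard error of 0.27 (limma adjusted p = 0.0339, and 0.129 without METH 2).

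SEMA5A and SEMA5B form the class of membrane semaphorins with thrombospondin repeats, and they moved in opposite directions. SEMA5B (ENSG00000082684, chromosome 3, 122909082 to 123028605, minus strand) measured 11.9, 17.0 and 15.5 CPM in PBS and 6.46, 8.60 and 5.83 CPM in METH. Its groups were well apart, and the METH mean was 0.471 of the PBS mean. SEMA5B changed by -1.08 on the log2 scale, with a standard error of 0.25 (limma adjusted p = 0.0188). SEMA5A was much the lower in CPM, at 0.172, 0.541 and 0.183 CPM in PBS and 1.24, 0.407 and 0.701 CPM in METH. METH 2 lay within the PBS range of SEMA5A, and its pass (log2 fold change 1.15, limma adjusted p = 0.0743) was lost without METH 1, METH 3, PBS 10 or PBS 12, with adjusted p-values up to 0.217. The other semaphorins, SEMA3C, SEMA3D, SEMA4G, SEMA6B and SEMA6C, had log2 fold changes of 0.38 to 0.81 and limma adjusted p-values of 0.101 to 0.164. SEMA3C was the most abundant of them per kb of exon, at 4.32 CPM per kb in PBS and 5.87 in METH. SEMA4G lies across MRPL43, a far more abundant gene of the other strand at 143 and 194 CPM, so reads of the pair may be mixed.

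Among the receptors, PLXNA4 (ENSG00000221866, chromosome 7, 132123332 to 132648688, minus strand), a partner of neuropilin-1 in the response to semaphorin 3A, measured 32.5, 17.4 and 25.8 CPM in PBS and 10.5, 11.8 and 12.3 CPM in METH. Its METH libraries lay close together, below a wide PBS range. On the log2 scale PLXNA4 differed by -1.08 with a standard error of 0.26 (limma adjusted p = 0.0206). PLXNA1, a related co-receptor, fell from 21.7, 26.2 and 25.8 CPM to 16.1, 17.4 and 19.0 CPM (log2 fold change -0.49, limma adjusted p = 0.0690). NRP1, the ligand-binding partner that semaphorin 3A and VEGF share, measured 2.30, 2.00 and 0.794 CPM in PBS and 0.584, 0.275 and 0.888 CPM in METH. PBS 12 and METH 3 thus overlapped for NRP1, and its log2 fold change of -1.39 had a standard error of 0.49 (limma adjusted p = 0.0509). The pass of NRP1 was lost without METH 1, METH 2 or PBS 10 (adjusted p from 0.102 to 0.156), and that of PLXNA1 without METH 1, METH 2, PBS 11 or PBS 12 (up to 0.193). PLXNB3, a receptor of SEMA5A, had a log2 fold change of 0.38 (95% interval -0.10 to 0.85). It overlaps SRPK3 on the same strand, which was at 1.14 and 2.26 CPM.

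**Figure D3:**
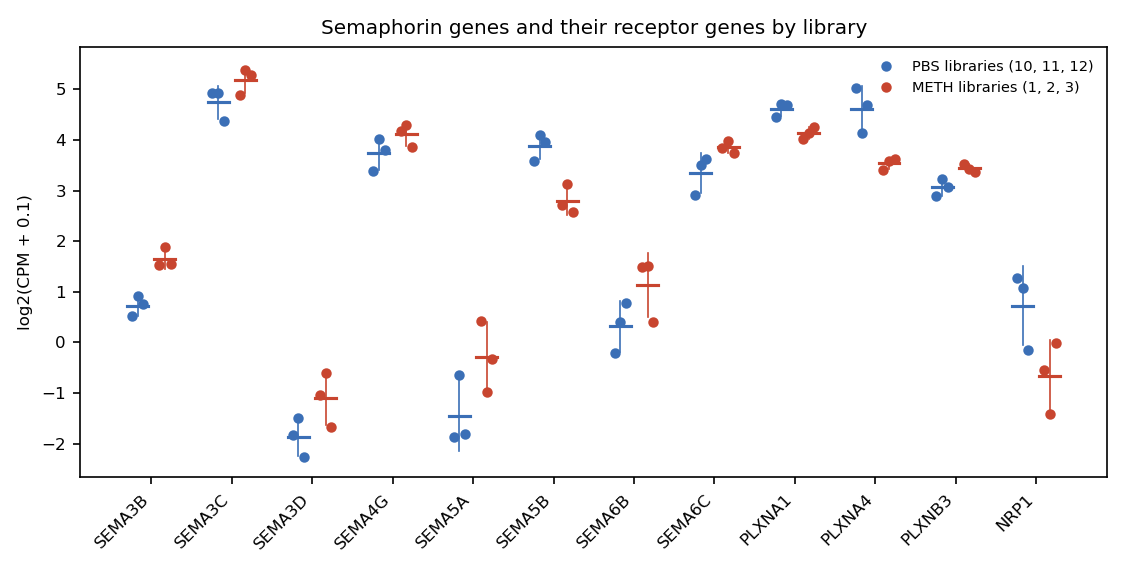
Level of each semaphorin, plexin and neuropilin gene on the log2(CPM + 0.1) scale (y axis) in the PBS (blue) and METH (red) libraries, with group means (horizontal) and 1 SD (vertical). SEMA5B and PLXNA4 are separated downwards in METH and SEMA3B upwards, while NRP1 and SEMA5A overlap between groups.

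RTN4RL1 (ENSG00000185924, chromosome 17, 1934677 to 2025345, minus strand) codes for a Nogo receptor homologue on the axon surface that binds inhibitory chondroitin sulphate proteoglycans. It measured 0.099, 0.115 and 0.032 CPM in PBS, which are 11, 10 and 3 reads, and 1.48, 0.991 and 0.925 CPM in METH, or 127, 90 and 99 reads. The gene was near the floor of detection in every PBS library and clearly detected in every METH library, 0.0820 ± 0.0440 CPM against 1.13 ± 0.304 CPM (SD, n = 3). RTN4RL1 changed by 2.76 on the log2 scale, with a standard error of 0.36 (limma adjusted p = 0.00371). It depended on the value added before the logarithm, at 0.97 with 1 added and 3.75 with 0.01 added, and the ratio of the means was 13.8. SLIT2, the midline repellent of Robo receptors and the only Slit or Robo gene in the table, measured 1.72, 1.02 and 0.816 CPM in PBS and 0.712, 0.638 and 0.682 CPM in METH. Its METH libraries lay just under the lowest PBS library, and its log2 fold change of -0.67 did not pass (95% interval -1.44 to 0.10, limma adjusted p = 0.111).

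Of 11 synaptic and leucine-rich adhesion genes, SLITRK6, CNTNAP4, NLGN2 and NLGN3 rose, CNTN2, LRRC4 and FLRT3 fell, and CNTN1, CNTNAP3, LRRTM1 and SLITRK5 did not pass. SLITRK6 (ENSG00000184564, chromosome 13, 85792787 to 85806683, minus strand) codes for a leucine-rich membrane protein that supports innervation of the inner ear. It measured 0.858, 0.541 and 0.419 CPM in PBS and 5.94, 6.78 and 7.48 CPM in METH, on 39 to 95 and 509 to 800 reads. All METH libraries were several times above all PBS libraries, and the ratio of the means was 11.1. On the log2 scale SLITRK6 differed by 3.32 with a standard error of 0.31 (limma adjusted p = 0.000968), and it lay between 3.12 and 3.56 with any 1 library left out. SLITRK5, a related gene also on chromosome 13, was at 6 to 13 reads in PBS and 19 to 22 reads in METH, with a log2 fold change of 0.66 (95% interval -0.13 to 1.45).

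The neuroligins are postsynaptic partners of neurexins. NLGN2, found at inhibitory synapses, measured 33.5, 33.6 and 41.7 CPM in PBS and 48.5, 57.1 and 49.0 CPM in METH (log2 fold change 0.51, limma adjusted p = 0.0615, and not passing without METH 1 or METH 2, at up to 0.204). NLGN3 (ENSG00000196338), found at both excitatory and inhibitory synapses, measured 3.41, 3.57 and 4.13 CPM in PBS and 6.62, 8.21 and 5.92 CPM in METH. Both were higher in all METH libraries than in any PBS library. NLGN3 changed by 0.87 on the log2 scale, with a standard error of 0.24 (limma adjusted p = 0.0295, and 0.122 without METH 2). CNTNAP4, a presynaptic protein of interneurons and dopaminergic neurons, was at 7, 3 and 1 reads in PBS and 30, 29 and 41 reads in METH. These are low levels, 0.0363 ± 0.0260 CPM against 0.351 ± 0.0320 CPM (SD, n = 3), and the groups did not overlap (log2 fold change 1.74, limma adjusted p = 0.0127). The value for CNTNAP4 depended on the pseudocount, at 0.38 with 1 added and 3.13 with 0.01 added, and the ratio of the means was 9.65.

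CNTN2 (ENSG00000184144), also called TAG-1, an adhesion protein of growing axons, measured 3.54, 3.98 and 3.41 CPM in PBS and 1.75, 2.52 and 1.99 CPM in METH. The groups were apart, with a log2 fold change of -0.79 and a standard error of 0.26 (limma adjusted p = 0.0455, and 0.140 without METH 1). LRRC4, the NGL protein that binds netrin-G2, measured 5.40, 2.25 and 7.78 CPM in PBS and 1.68, 3.35 and 1.87 CPM in METH. PBS 11 lay within the METH range of LRRC4, and its difference of -1.02 on the log2 scale, with a standard error of 0.46 (limma adjusted p = 0.0852), passed in only 1 of the 6 fits with a library left out, with adjusted p-values up to 0.247 and a difference of -0.65 without PBS 12. In these libraries the ligand gene NTNG2 therefore rose while the gene of its NGL partner was lower at a weaker level of support. FLRT3, which binds latrophilins and UNC5 receptors, measured 1.98, 0.495 and 0.344 CPM in PBS and 0.105, 0.231 and 0.355 CPM in METH, with PBS 10 far above the rest (log2 fold change -1.38, limma adjusted p = 0.0761, lost without METH 1, METH 2 or PBS 10, at adjusted p-values up to 0.195). Without PBS 10 the log2 fold change of FLRT3 was -0.71, and with 1 added it was -0.57 and did not pass (limma adjusted p = 0.1004). FLRT3 and LRRTM1 overlap larger genes of the other strand, MACROD2 and CTNNA2, and CNTNAP3 has near-identical copies on chromosome 9, which makes their counts uncertain. None of LRRTM1, CNTNAP3 and CNTN1, an axonal relative of CNTN2, passed, with log2 fold changes of -1.05, -0.45 and 0.59 and limma adjusted p-values of 0.136, 0.314 and 0.113.

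Cadherins bind like to like and need calcium. CDH11 (ENSG00000140937, chromosome 16, 64943753 to 65126112, minus strand), a type II cadherin of mesenchymal and neural crest cells, measured 17.8, 19.7 and 15.5 CPM in PBS and 9.66, 8.32 and 10.7 CPM in METH. The 2 groups were far apart for their spread, 17.6 ± 2.11 CPM against 9.56 ± 1.19 CPM (SD, n = 3). On the log2 scale CDH11 differed by -0.88 with a standard error of 0.21 (limma adjusted p = 0.0216). CDH18, another type II cadherin, was at 2 to 25 reads in PBS and 38 to 78 reads in METH, or 0.226, 0.104 and 0.021 CPM against 0.444, 0.550 and 0.729 CPM (log2 fold change 1.73, limma adjusted p = 0.0231, and 0.50 with 1 added or 2.61 with 0.01 added). CDH15, the cadherin of muscle precursors, varied from 1.23 to 5.70 CPM within PBS alone and did not pass (log2 fold change -0.53, 95% interval -1.64 to 0.58). With 1 library left out the log2 fold change of CDH15 ran from -1.15 to -0.09, and it passed only without PBS 10.

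**Figure D4:**
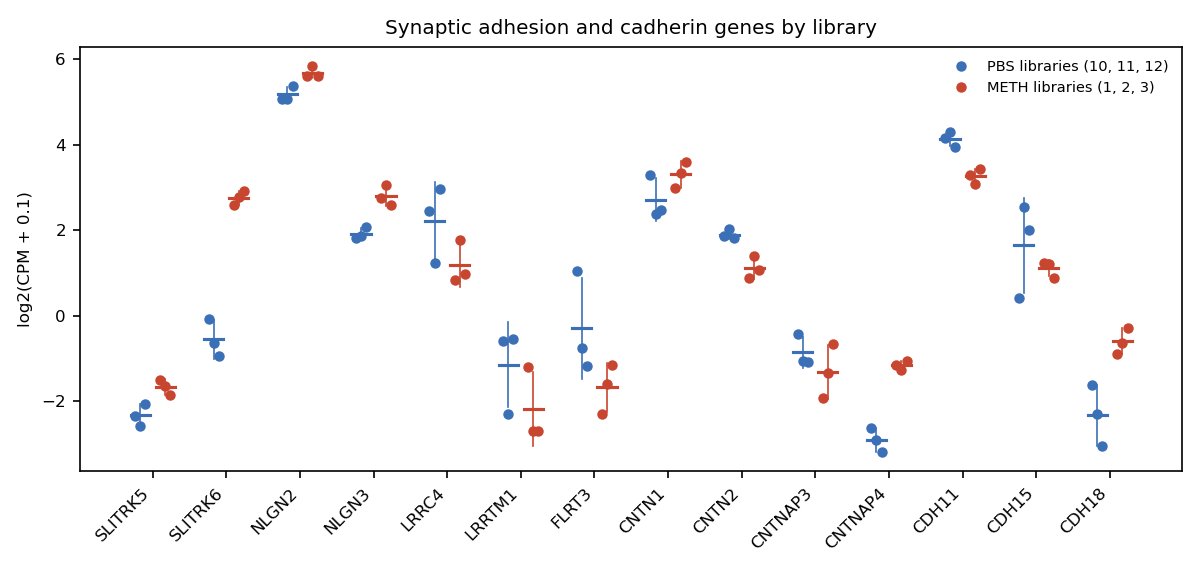
Level of each synaptic adhesion and cadherin gene on the log2(CPM + 0.1) scale (y axis) in the PBS (blue) and METH (red) libraries, with group means (horizontal) and 1 SD (vertical). SLITRK6 and CNTNAP4 are separated upwards and CDH11 and CNTN2 downwards, while the PBS libraries of LRRC4, FLRT3 and CDH15 are widely spread.

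The clustered protocadherins lie in tandem on chromosome 5q31. Each alpha and gamma gene has its own promoter and variable exon, which is spliced to a set of constant exons shared by its whole cluster, and neurons choose a few promoters each, so that neighbouring cells carry different surface codes. CTCF and cohesin act at a conserved element in most of these promoters, though not in those of some C-type genes such as PCDHAC2 and PCDHGC4. Of the 9 clustered genes in the table, PCDHA8, PCDHA4 and PCDHGB2 rose, PCDHGB4 and PCDHGC4 fell, and PCDHAC2, PCDHGA7, PCDHGA9 and PCDHGB1 did not pass. Promoter stretches of the alpha, gamma A and gamma B genes that passed are given, to set side by side genes that went up and down. Capitals mark a match to the letters CGCTNT, taken from the core of the element, on the coding strand, and the sequences are from RefSeq, build GRCh38.p14, plus strand. They lie before the start of the gene in GENCODE, except that of PCDHA4, which lies before a RefSeq start within the gene as GENCODE has it.
PCDHA8 (higher), chr5:140841120-140841179: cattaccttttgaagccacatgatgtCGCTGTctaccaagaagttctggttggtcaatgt
PCDHA4 (higher), chr5:140806969-140807028: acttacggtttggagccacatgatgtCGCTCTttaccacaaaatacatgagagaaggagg
PCDHGB2 (higher), chr5:141359911-141359970: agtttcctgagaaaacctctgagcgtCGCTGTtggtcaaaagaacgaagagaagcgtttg
PCDHGB4 (lower), chr5:141387607-141387666: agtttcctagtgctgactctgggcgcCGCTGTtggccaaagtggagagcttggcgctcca

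The 6 letters matched in all 9 clustered genes, in 33 of the 47 clustered genes with a RefSeq promoter window (250 bases before to 50 after the start), and, being short, in 31.7% of all 35116 windows, on either strand, so such a match does not show that the element is there. A longer word around them was rarer. The words given next can be read in the stretches printed above, so their presence in PCDHA4, PCDHA8 and PCDHGB4 adds no support. CATGATGTCGCT was in 8 of 11 alpha genes, PCDHA4 and PCDHA8 included, and in 0.0228% of all windows, and GCGCCGCTGT was in 9 of 18 gamma A and B genes, PCDHGA7, PCDHGA9, PCDHGB1 and PCDHGB4 included, and in 0.131% of windows. The same word therefore stood in PCDHGB4, which fell, and in PCDHGA7, PCDHGA9 and PCDHGB1, whose log2 fold changes of 0.34 to 0.60 did not pass. It was not found in PCDHGB2. The search over all windows took in those of the C-type genes PCDHAC2 and PCDHGC4, and neither word stood there.

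PCDHA8 (ENSG00000204962, chromosome 5, 140841187 to 141012344, plus strand) measured 0.153, 0.000 and 0.193 CPM in PBS and 1.80, 2.36 and 2.26 CPM in METH. These are 17, 0 and 18 reads against 154, 214 and 242, so the gene was barely seen in PBS and seen in all METH libraries. The ratio of the means was 18.5. PCDHA8 changed by 3.51 on the log2 scale, with a standard error of 0.44 (limma adjusted p = 0.00337), and it was 1.49 with 1 added and 4.95 with 0.01 added. PCDHA4, which starts 34.3 kb upstream, moved by far less, with 2.46, 2.48 and 1.86 CPM in PBS and 2.92, 3.996 and 3.45 CPM in METH (log2 fold change 0.59, limma adjusted p = 0.0891). PCDHA4 did not pass with edgeR and TMM scaling (adjusted p = 0.126) and did without that scaling (0.0943). PCDHAC2, the last alpha gene, a C-type gene in wide use among neurons, was at 8.31 to 9.70 CPM in PBS and 7.06 to 7.86 CPM in METH (log2 fold change -0.27, 95% interval -0.74 to 0.20). Summed over these 3 genes, which are only a part of the alpha cluster, the level was 11.5 ± 0.961 CPM in PBS and 13.1 ± 0.750 CPM in METH (SD, n = 3, exact permutation p = 0.1). An antisense gene of the alpha cluster, AC005609.3, which overlaps PCDHA4 and PCDHA8, was at 4.36 ± 0.931 CPM in PBS and 1.68 ± 0.686 CPM in METH (SD, n = 3), a fall of the opposite sign to PCDHA8.

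In the gamma cluster PCDHGB2 (ENSG00000253910) measured 0.776, 0.576 and 0.934 CPM in PBS and 1.32, 1.53 and 1.17 CPM in METH. Its groups did not overlap, and its log2 fold change was 0.75 with a standard error of 0.31 (limma adjusted p = 0.0713), but it did not pass with edgeR and TMM scaling (adjusted p = 0.111, and 0.0845 without that scaling) or DESeq2 (adjusted p = 0.101). PCDHGB4 was at 39, 24 and 16 reads in PBS and 2, 12 and 10 reads in METH (log2 fold change -1.02, limma adjusted p = 0.0652). PCDHGB4 did not pass with DESeq2 (adjusted p = 0.105), and its value was -0.23 with 1 added, where it did not pass (limma adjusted p = 0.104), and -1.76 with 0.01 added. PCDHGC4, a C-type gene at the far end of the cluster, measured 14.1, 11.8 and 11.8 CPM in PBS and 8.91, 10.2 and 5.30 CPM in METH (log2 fold change -0.67, limma adjusted p = 0.0735, and -0.39 without METH 3). The 6 gamma genes of the table summed to 28.4 ± 0.822 CPM in PBS and 28.6 ± 3.57 CPM in METH (SD, n = 3, exact permutation p = 1). Gamma genes outside the table are not in this sum, so it is not the level of the whole cluster. Among the 5 clustered genes that passed, only PCDHA8 did so without METH 1 or without METH 2, where the others reached adjusted p-values of up to 0.252. PCDHA4 and PCDHGC4 were also lost without METH 3, PBS 10 or PBS 12 (0.101 to 0.195), PCDHGB4 without PBS 10 (0.133) and PCDHGB2 without PBS 11 (0.128). How reads on the constant exons were shared out among the genes of a cluster is not given in the sources used here, so each level in it is uncertain.

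**Figure D5:**
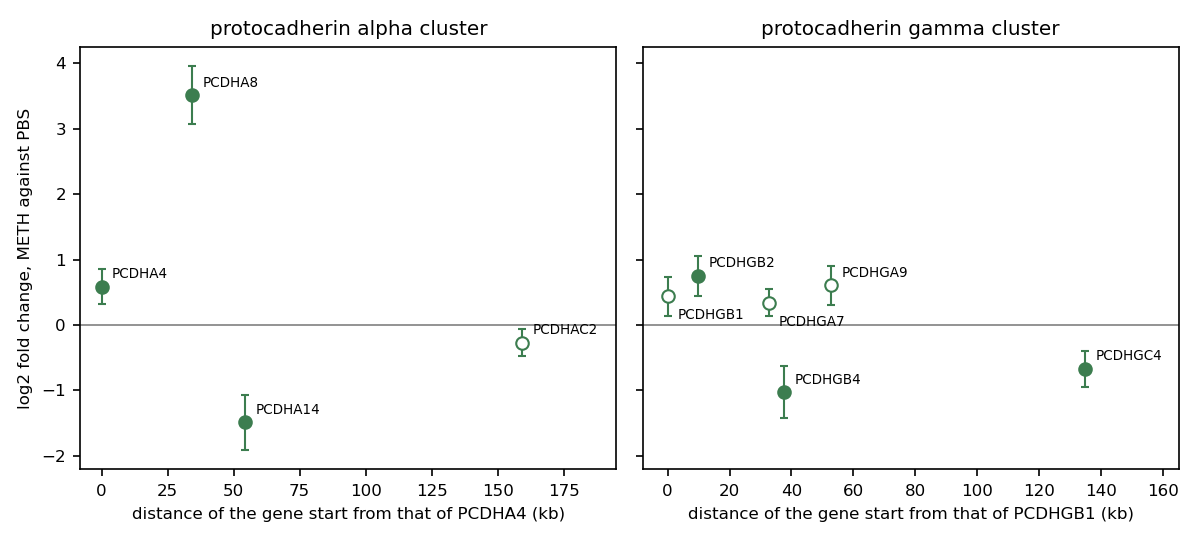
Log2 fold change of METH against PBS (y axis, bars are standard errors) for the protocadherin alpha and gamma genes of the table, by the distance of the gene start from that of the first one in the table in kb (x axis); filled points passed an adjusted p-value of 0.1. PCDHA8 stands at 3.51 between PCDHA4 at 0.59 and the pseudogene PCDHA14 at -1.49, and the gamma genes lie between -1.02 and 0.75.

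Outside the clusters, protocadherins are single genes. PCDH10 rose, PCDH17 and PCDH7 fell, and PCDH1, at 5.33 to 8.11 CPM in PBS and 9 to 9.92 CPM in METH, did not pass. PCDH17 (ENSG00000118946), a synaptic delta protocadherin, measured 3.44, 1.80 and 2.20 CPM in PBS and 0.992, 1.09 and 1.56 CPM in METH, with a log2 fold change of -0.95 and a standard error of 0.33 (limma adjusted p = 0.0520). PCDH7 (ENSG00000169851) measured 1.75, 0.495 and 0.902 CPM in PBS and 0.444, 0.253 and 0.477 CPM in METH, with a log2 fold change of -1.11 and a standard error of 0.45 (limma adjusted p = 0.0713). In both the lowest PBS library stood only slightly above the highest METH library. PCDH10, which is often silenced in tumours, was at 0.542, 0.564 and 0.129 CPM in PBS and 1.14, 0.914 and 0.738 CPM in METH (log2 fold change 1.15, limma adjusted p = 0.0678). PCDH10 did not pass with edgeR and TMM scaling (adjusted p = 0.109) and did without that scaling (0.0976). None of the 3 passed without METH 1 or without METH 2 (adjusted p from 0.129 to 0.190), PCDH17 and PCDH7 were also lost without PBS 10, and PCDH10 and PCDH7 without PBS 12. The log2 fold change of PCDH10 was 0.64 without PBS 12, and that of PCDH7 was -0.68 without PBS 10.

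PCDHA14, LRRC46 and UNC5CL fitted by their letters alone or as a pseudogene. PCDHA14, a transcribed pseudogene within the alpha cluster, was at 51, 19 and 33 reads in PBS and 0, 10 and 8 reads in METH (log2 fold change -1.49, limma adjusted p = 0.0304, and -0.34 with 1 added or -2.86 with 0.01 added). LRRC46, a leucine-rich gene outside the NGL family, measured 0.596, 1.60 and 1.18 CPM in PBS and 0.537, 0.407 and 0.402 CPM in METH, with a log2 fold change of -1.08 and a standard error of 0.39 (limma adjusted p = 0.0547). Its PBS 10 library was close to METH 1, and its pass was lost without METH 1, METH 2, PBS 11 or PBS 12 (adjusted p from 0.104 to 0.140). UNC5CL, named for its likeness to UNC5 receptors, was at 0.140 to 0.299 CPM in PBS and 0.215 to 0.528 CPM in METH and did not pass. Without these 3, 21 genes rose and 12 fell of 51.

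The promoter windows were also searched for the cAMP response element TGACGTCA, the site of CREB, and for AAAGGTCA, the site of the NR4A receptors, on both strands. Of the 43 genes with a window, EPHA2 and SEMA3B, both higher in METH, held the first, which was in 1.85% of all windows, and none held the second, which was in 1.22%. Both are printed beside the values given above, with the element in capitals, on the coding strand, from RefSeq build GRCh38.p14. That of SEMA3B belongs to a RefSeq start upstream of the start of the gene in GENCODE.
EPHA2, minus strand, chr1:16156087-16156146: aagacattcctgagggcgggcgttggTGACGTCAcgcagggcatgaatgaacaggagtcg
SEMA3B, plus strand, chr3:50260169-50260228: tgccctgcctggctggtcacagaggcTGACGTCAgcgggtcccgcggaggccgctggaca

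Genes that work with these families were taken from 6 lists. Of 35 other guidance ligands and receptors, 12 were in the table, of which 5 rose and 4 fell. They included CXCR4, the receptor of the chemokine CXCL12, which fell from 83.5 ± 40.8 to 21.7 ± 6.78 CPM (log2 fold change -1.88, limma adjusted p = 0.00990), and the neurotrophin receptor NGFR, which rose from 3.71 ± 3.20 to 9.89 ± 3.05 CPM (log2 fold change 1.74, limma adjusted p = 0.0451). The gene of CXCL12 was also among the 4 that fell (log2 fold change -1.51, limma adjusted p = 0.00825). Of 63 genes of guidance signalling inside the cell, 13 were in the table, of which 3 rose and 5 fell. MICAL2, of a family of actin oxidases that acts downstream of plexins, fell from 1.91 ± 0.311 to 0.5003 ± 0.207 CPM (log2 fold change -1.78), and TRIO, a guanine nucleotide exchange factor of netrin signalling, fell from 30.9 ± 7.27 to 15.2 ± 2.76 CPM (log2 fold change -1.01). CXCR4, MICAL2 and TRIO passed with any 1 library left out, and NGFR did not without METH 1 or PBS 12 (adjusted p up to 0.122). For the guidance list the counts were 1 higher and 3 lower without METH 1, 2 and 2 without METH 2, and 3 and 4 without PBS 12. For the signalling list they were 0 and 3 without METH 1, 0 and 2 without METH 2, 2 and 4 without PBS 10, 5 and 5 without PBS 11, and 1 and 4 without PBS 12.

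Of 28 catenins and other cadherin-superfamily genes, 10 were in the table, of which 2 rose and 4 fell. The giant cadherin FAT1 rose from 19.9 ± 7.13 to 40.6 ± 7.35 CPM and calsyntenin-3 (CLSTN3) from 20.46 ± 6.84 to 34.2 ± 6.31 CPM. The 4 that fell were PKP4 and ARVCF, of the p120 catenin family, CELSR3 and FAT3, with log2 fold changes of -0.77, -0.67, -0.47 and -0.86, and FAT3 was under 1 CPM in both groups. The median log2 fold change of this list was -0.50. Of 44 synaptic adhesion partners and scaffolds, 13 were in the table, of which none rose and 5 fell, or 38.5% passing beside 69.1% of the whole table. Among those that fell were ELFN1, from 14.7 ± 8.27 to 3.49 ± 1.86 CPM, and CBLN2, from 8.32 ± 0.868 to 3.74 ± 0.479 CPM. Of 13 genes of cohesin, CTCF and silencers of the clustered protocadherins, 4 were in the table and all 4 fell, by 0.66 to 1.17 on the log2 scale, where 35.8% of the whole table was lower. The 4 were SMC1A, DNMT1, DNMT3B and SMCHD1. CTCF was not in the table, and SMC1A was the only cohesin gene of the list in it. The DNA methyltransferase DNMT3B fell from 4.90 ± 1.31 to 2.09 ± 0.269 CPM. SMCHD1, a silencer of repeated gene clusters, fell from 5.21 ± 1.96 to 3.01 ± 1.62 CPM with overlapping groups (limma adjusted p = 0.0985). Of 11 sheddases and gamma-secretase genes, 2 were in the table and neither passed, with log2 fold changes of 0.39 and 0.54, although both passed as higher without PBS 11 and 1 did without METH 3. Leaving out 1 library ended the pass of CLSTN3 (without METH 1, METH 2, PBS 10 or PBS 12, adjusted p up to 0.163) and of SMCHD1 (in every case but METH 3, up to 0.280), and 2 to 4 of the cohesin and silencer genes passed in those fits. FAT1, ELFN1, CBLN2 and DNMT3B passed in all of them. For the cadherin superfamily list the counts were 1 higher and 1 lower without METH 1 or METH 2, 3 and 2 without METH 3, 1 and 3 without PBS 10, and 1 and 0 without PBS 12. For the synaptic list they were 4 and 5 without PBS 11, 3 and 4 without METH 3, and 1 and 6 without PBS 10, so that the absence of passing higher genes there rested on single libraries. The errors given for these lists are SDs of 3 libraries.

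Markers of cell state moved beside these genes. Among markers of noradrenergic neuroblastoma cells, GATA2 and ELAVL4 fell and CHGB rose. Of 9 markers of mesenchymal neuroblastoma cells, 4 were in the table: VIM, SNAI2 and FOSL1 rose, TWIST1 did not pass, and the sum was 456 to 745 CPM in PBS and 796 to 1150 CPM in METH. The fibroblast markers DCN and LUM, 2 of 7 listed, both rose, from 19.1 to 25.3 CPM in sum to 39.9 to 46.0 CPM, and ERBB3, 1 of 6 Schwann cell markers, rose from 0.268 to 0.460 CPM to 0.537 to 0.785 CPM. Without METH 1 or without METH 2 GATA2, ELAVL4, VIM, FOSL1 and ERBB3 did not pass (adjusted p up to 0.206), FOSL1 also did not without PBS 10 or PBS 12, ERBB3 also did not without METH 3, PBS 11 or PBS 12, SNAI2 did not without METH 1 (0.104), and CHGB, LUM and DCN passed in every fit. None of the markers named was at 0 in any library, and GATA2 was at 264 CPM or more throughout. The part of these shifts in the values above was not tested.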

How the data were processed

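RNA-seq of 3 METH and 3 PBS libraries of SH-SY5Y cells was analysed. The deposited table gives, for each gene, CPM values per library (its headers say FPKM, but the authors' values are whole multiples of 1 step per column, and genes of all lengths share it), beside the authors' fold changes, p-values and adjusted p-values from DESeq2, which were not used. Genome build, aligner and counter are not given in the sources used here. Libraries were made with the SMARTER mRNA-Seq kit. All sample columns were used. PBS columns bear the numbers 10 to 12 where the labels give 1 to 3, so they were assigned to the group and not to single samples.

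METH was compared with PBS by limma 3.58.1 (R 4.3.3, moderated test with a trend) on log2(CPM + 0.1) over all 4101 genes, with Benjamini-Hochberg adjustment and a threshold of 0.1. Fold changes on this scale understate those of low genes. Reads recovered from the steps (100% of low values whole within the rounding of the table in every library) were tested with edgeR 4.0.16 and DESeq2 1.42.0 as alternatives, which called 2800 and 2993 of the 4101 genes against 2833 with limma. The fits were also run on simulated data with this comparison's library sizes and PBS means for 4101 genes. There limma called 92 of 100 genes changed 2-fold, 99 of 100 changed 4-fold and 14 unchanged genes. The simulation gave every gene the same dispersion and changed only a small part of the genes, whereas most genes of the real table passed. Its rates therefore do not describe how the fits behave on these libraries. Gene positions, exon lengths and overlaps come from GENCODE 29 (GRCh38), which held 4093 of the 4101 identifiers and all 54 genes, and promoter windows from RefSeq (GRCh38.p14), which held 43 of the 54.

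The genes and lists were chosen with earlier results of these data known. Full values are given for PCDHA8, SLITRK6, RTN4RL1 and EFNB2 and for the 20 largest absolute log2 fold changes among passing genes whose PBS or METH mean reached 1 CPM. From each other list, the 2 largest such changes are named. Values of other genes were added after they were seen. Some markers of the noradrenergic list are not reported here.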

Additional observations from a re-analysis of the deposited data

How the results depend on the processing

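Against 21 genes higher and 14 lower, adjustment over 20000 tests left 6 and 1, a threshold of 0.05 left 11 and 5, and leaving out 1 library gave 8 to 24 higher and 4 to 13 lower, with the fewest higher without METH 2 and the fewest lower without METH 1. The pseudocounts 1 and 0.01, a minimum mean of 1 CPM, limma without a trend, another scaling, edgeR (with and without TMM) and DESeq2 kept both counts within 1.5 times. Of the 35 genes, edgeR with TMM also called 32 and DESeq2 33. Beyond the 35, edgeR with TMM called NTN3 and SLIT2 as lower, and DESeq2 called NTN3 as lower and SEMA6B as higher. The 21 genes given in full, under 16 settings each, kept direction and side of the threshold in 278 of 336 cases, lost the pass in 58 and reversed in 0. Median-ratio scaling moved the median log2 fold change of the whole table from 0.11 to 0.08. Why single libraries matter was not tested. With 1 or 0.01 added, the log2 fold change of 14 of the 35 moved by more than 1.5 times, with no change of direction among the genes given in full. Beside RTN4RL1, PCDHA8, CNTNAP4, CDH18, PCDHA14, PCDHGB4 and FLRT3, they were NRP1 (-0.74 with 1 added), NTNG1 (0.62), SEMA5A (0.44), PCDH7 (-0.52), PCDH10 (0.46), PCDHGB2 (0.41) and LRRC46 (-0.53). Of the 35, PCDHGB4 and FLRT3 lost the pass with 1 added. No paired analysis was possible because PBS columns carry the numbers 10 to 12 and those of METH 1 to 3, with nothing to link them.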
